A study of Mus musculus with 2 samples.

Results

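The nitric oxide and cGMP pathway was examined through 10 genes in RNA sequencing of mouse cavernous endothelial cells (MCECs), and the clearest differences lay at its nitric oxide end. The inducible synthase Nos2, absent but for about 1 fragment in HG+HBS, was at 5.78 FPKM in HG+PC-NVs, and the arginase Arg2 and the cofactor enzyme Gch1 were also higher there. Ddah2 and the cGMP kinase Prkg1 were lower in HG+PC-NVs, with levels 1.49 and 1.83 times higher in HG+HBS. Nos3 was lower too, on only about 11 and 0.96 fragments. Ddah1 and Pde5a stood at nearly equal levels in the 2 libraries. So did Nos1, but on about 6.8 and 5.9 fragments, too few to show a 2-fold difference. The rule took the genes by symbol: the nitric oxide synthases Nos1, Nos2 and Nos3, the arginases Arg1 and Arg2, the hydrolases Ddah1 and Ddah2, Gch1, the phosphodiesterase Pde5a and Prkg1. All 10 of the 10 symbols were found among the 23183 symbols of the files, on 12 of the 33299 transcript rows, since 8 of the genes had 1 row each and 2, Ddah2 and Prkg1, had 2 rows. For each symbol the values of its rows were converted to normalized FPKM (fragments per kilobase of transcript, scaled to the library) and summed within each library.

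MCECs are primary cells grown out of mouse penis tissue and used at passages 2 to 4, and the study worked with male C57BL/6J mice of 8 weeks. Cells of both libraries were kept in high glucose (HG, 30 mM), with HEPES-buffered saline added in HG+HBS, whereas HG+PC-NVs had 1 µg/mL of PC-NVs, which are nanovesicles made by extruding cultured cavernous pericytes through membranes. RNA was taken after 72 hours of glucose and 24 hours of PC-NVs according to the methods, whereas the sample labels give 5 days of glucose. Each condition was 1 library, how many animals or cultures fed each is not given in the sources used here, and no difference below could be set against the spread between cultures, so that no test was run and every interval covers counting error only.

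Nitric oxide is made from arginine by the nitric oxide synthases, which need tetrahydrobiopterin as a cofactor, and in erectile tissue it comes from the neuronal enzyme (Nos1) in nerves and the endothelial enzyme (Nos3) in the vessel lining, while the inducible enzyme (Nos2) appears in cells exposed to inflammatory signals. It activates soluble guanylate cyclase in smooth muscle, the cGMP that follows acts through the kinase encoded by Prkg1 to relax the muscle, and phosphodiesterase 5 breaks cGMP down, which is the step that oral erection drugs block. Arginases compete for arginine, and the Ddah enzymes degrade asymmetric dimethylarginine (ADMA), an inhibitor of the synthases.

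The depth was estimated from the lowest values, which fell on steps of 1 and 2 fragments, as about 13300000 fragments in the HG+HBS library against 11700000 in the other. The endothelial markers of the labelled cell type were uneven in level. Of 13 endothelial markers, 7 were under 1 FPKM in both libraries, with Pecam1 at 1.05 and 0.938 FPKM and Kdr at 0.518 and 0.438 FPKM in HG+HBS and HG+PC-NVs, while Cdh5 was at 5.05 and 5.73 FPKM and Eng, the highest of the list, at 29 and 21.4 FPKM. The 8 fibroblast markers summed to 1903 and 2235 FPKM, with Dcn at 623 and 1283 FPKM and the other 7 lower in HG+PC-NVs, and the myeloid marker Lyz2 was at 212 and 193 FPKM. In bulk RNA, fewer cells of a type and less RNA per cell cannot be told apart.

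**Figure D1:**
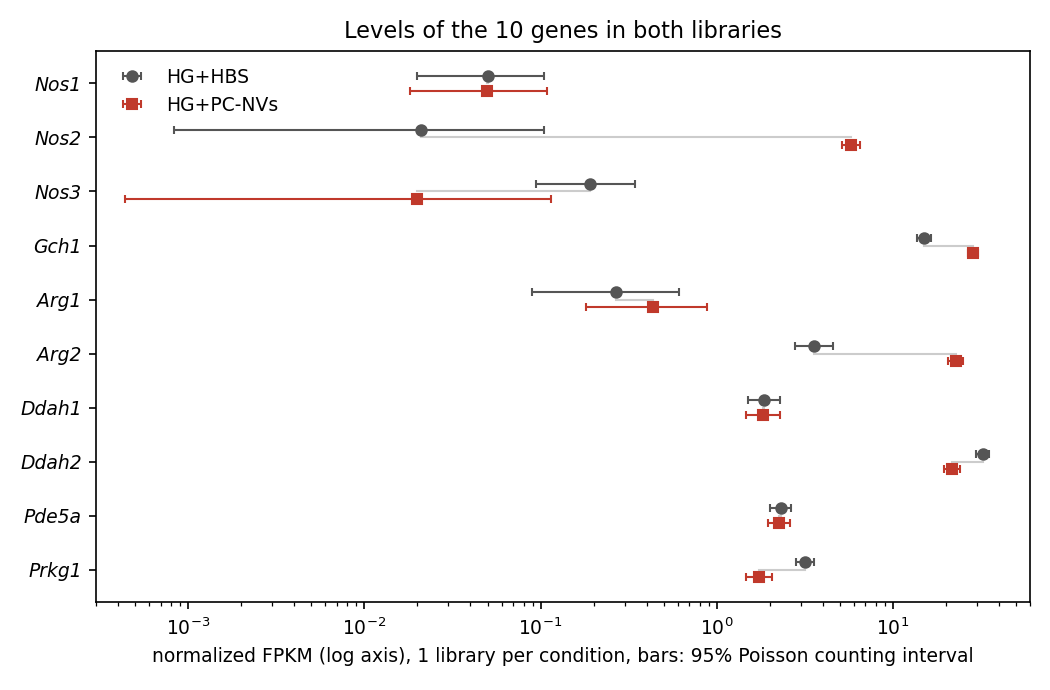
Normalized FPKM (log axis) of the 10 genes in HG+HBS (grey circles) and HG+PC-NVs (red squares), 1 library each, with 95% Poisson intervals for counting error. Nos2 is at 0.0209 and 5.78 FPKM and Arg2 at 3.59 and 22.8 FPKM, with intervals far apart, while the points of Nos1, Ddah1 and Pde5a lie at nearly the same level in both libraries.

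Nos2, which makes large amounts of nitric oxide once induced (chromosome 11 of GRCm38, 78920787 to 78960254), was at 0.0209 FPKM in HG+HBS against 5.78 FPKM in HG+PC-NVs. These levels correspond to about 1.2 and 282 fragments, and the ratio of the FPKM values was 277, with a 95% Wilson interval of 54.2 to 1413 that is wide because of the near-absent level in HG+HBS. On the deposited log2(value + 1) scale, which compresses low values, its log2 ratio was 2.73, and 0.28% of the 11785 symbols with a mean log2 level of at least 1 had a larger one. Nos2 passed that filter only through its level in HG+PC-NVs, and by level it moved from rank 16099 among all symbols in HG+HBS to rank 8137.

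Nos3 (chromosome 5, 24364810 to 24384474) was at 0.191 FPKM in HG+HBS against 0.0199 FPKM in HG+PC-NVs. That is about 11 fragments against 0.96, a level 9.59 times higher in HG+HBS with a Wilson interval of 1.54 to 59.5, so the direction holds against counting error but the size is nearly unknown. The 13 endothelial markers summed to 65.4 FPKM in HG+HBS against 50.8 FPKM in HG+PC-NVs, none was at 0 in either library, and of the 5 that passed the filter 0 differed more than 2-fold on the log2(value + 1) scale. Nos3 did not pass that filter, and on that scale its log2 ratio was -0.22. Of the markers left out by the filter, Cldn5 was at 0.391 and 0.0648 FPKM, Tie1 at 0.185 and 0.194 FPKM and Erg at 0.133 and 0.136 FPKM, all named after their values were seen. The part of the endothelial markers in the value of Nos3 was not tested. Nos1 (chromosome 5, 117781032 to 117958840) was at 0.0504 and 0.0499 FPKM, about 6.8 and 5.9 fragments, and the ratio of HG+PC-NVs to HG+HBS was 0.99 with an interval of 0.345 to 2.84, which leaves a difference of about 2-fold in either direction undetectable at this depth. The 9 neuronal and glial markers summed to 42.3 and 50.9 FPKM, 4 passed the filter with 0 past 2-fold, and Th, named after its values were seen, was listed at 0 in both libraries. Together the 3 synthases summed to 0.262 FPKM in HG+HBS against 5.85 FPKM in HG+PC-NVs, and the share of Nos2 in that sum was 7.96% and 98.8%.

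Gch1, whose product GTP cyclohydrolase carries out the rate-limiting step of tetrahydrobiopterin synthesis (chromosome 14, 47153895 to 47189413, reverse strand), was at 15.1 FPKM in HG+HBS against 28.5 FPKM in HG+PC-NVs. It rested on about 558 and 923 fragments, and the FPKM ratio was 1.89, with an interval of 1.71 to 2.1. The other genes of this cofactor's synthesis and recycling stood nearer to equal levels. Of 5 in the list, all 5 passed the filter, 0 differed more than 2-fold and the median log2 ratio was 0.05. The largest of these log2 ratios, 0.46, belonged to Gchfr, the feedback regulator of GTP cyclohydrolase, named after its values were seen, at 1.9 and 2.99 FPKM with a ratio interval of 0.841 to 2.95. Spr, the gene of the last synthetic step and the highest of the list in level, was at 54.4 and 53 FPKM.

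The promoter of Gch1 is shown because it is the only one of the higher genes with an entry in the RefSeq table used for sequences. The table (GRCm38.p6) held 6 of the 10 genes, in 7 windows, and had no entry for Nos2, Nos3, Arg1 or Arg2. The 250 bases before the start site, at chr14:47189414-47189663 on the reverse strand, read 5′ to 3′ with motif matches in capitals:
Gch1: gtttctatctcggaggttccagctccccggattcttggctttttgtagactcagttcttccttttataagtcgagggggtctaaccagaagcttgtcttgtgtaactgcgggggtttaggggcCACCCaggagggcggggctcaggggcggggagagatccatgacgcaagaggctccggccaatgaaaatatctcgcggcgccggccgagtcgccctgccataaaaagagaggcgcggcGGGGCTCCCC
The capitals mark a CACCC match at position -127 and, directly before the start site at position -10, a match to the degenerate NF-kB motif that reads as a match on both strands. These do not overlap each other. The windows, which run to 50 bases after the start, were searched on both strands for 5 motifs, and Gch1 held no match to the other 3, which were ACGTG, the GAS motif TTCNNNGAA and the motif known as ISRE. The NF-kB motif was held by 8.46% of all 32851 windows, CACCC by 57.5%, ACGTG by 19.6%, TTCNNNGAA by 8.3% and ISRE by 3.44%, and among the 7 windows of the 10 genes the NF-kB motif was in 2, those of Gch1 and Nos1. A match of letters is a description of the window and not a measured site.

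Arg2, the mitochondrial arginase (chromosome 12, 79130777 to 79156301), was at 3.59 FPKM in HG+HBS against 22.8 FPKM in HG+PC-NVs, about 68 and 379 fragments. The FPKM ratio was 6.36 with an interval of 4.92 to 8.22, and the log2 ratio on the deposited scale was 2.38, exceeded by 0.433% of the symbols passing the filter. Arg1, the cytosolic form that is abundant in liver (chromosome 10, 24915221 to 24927484), was at 0.267 and 0.436 FPKM, only about 5.3 and 7.5 fragments, and its ratio of 1.63 had an interval of 0.564 to 4.73 that includes no difference. Arg2 thus made up 93.1% of the summed arginase level in HG+HBS against 98.1% in HG+PC-NVs.

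Among 13 further genes of arginine supply and methylation, 11 passed the filter, and 2 of these, Ass1 and Odc1, were higher in HG+PC-NVs by more than 2-fold while 0 were more than 2-fold lower. Ass1, argininosuccinate synthase, which begins the recycling of citrulline to arginine, was at 27.4 FPKM in HG+HBS against 138 FPKM in HG+PC-NVs, a ratio of 5.05 with an interval of 4.63 to 5.51. Odc1, ornithine decarboxylase, which uses the ornithine that arginases release to begin polyamine synthesis, was at 51.3 and 249 FPKM, a ratio of 4.86 with an interval of 4.59 to 5.14. The rest of the list did not share this. Asl, which completes the recycling of arginine, was at 24.9 and 22.6 FPKM, and the arginine transporters Slc7a1 and Slc7a2 were at 3.99 and 3.74 FPKM and at 3.07 and 3.7 FPKM, these 3 being named after their values were seen. The median log2 ratio over the 11 genes was 0.02.

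Ddah2 (chromosome 17, 35059035 to 35062095) was the highest of the 10 genes in HG+HBS, at 32.5 FPKM, and was at 21.7 FPKM in HG+PC-NVs. With about 582 and 340 fragments, its level was 1.49 times higher in HG+HBS, with an interval of 1.31 to 1.71. Part of this came from its second row, listed at 2.81 FPKM in HG+HBS against 0 in HG+PC-NVs, while its main row was at 29.7 and 21.7 FPKM, a log2 ratio of -0.43 against -0.56 for the sum. Ddah1, the other ADMA hydrolase (chromosome 3, 145758675 to 145894277), was at 1.86 and 1.84 FPKM, with a ratio of 0.987 and an interval of 0.734 to 1.33. Summed over both, the level was 34.3 FPKM in HG+HBS against 23.6 FPKM in HG+PC-NVs, of which Ddah2 made up 94.6% and 92.2%.

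At the cGMP end, the soluble guanylate cyclase that responds to nitric oxide was nearly missing from both libraries. Its subunit genes Gucy1a3 and Gucy1b3, named after their values were seen, were at 0.0307 and less than 0.001 FPKM in HG+HBS and at 0.0177 and 0.0259 FPKM in HG+PC-NVs, under 3 fragments in each case, which is the floor used here. The further alpha subunit gene Gucy1a2, also named after its values were seen, was at 2.84 and 1.96 FPKM. Of the 8 genes of guanylate cyclases and natriuretic peptide receptors, 6 were under 1 FPKM in both libraries, and the 2 that passed the filter, Gucy1a2 and Npr2, were both less than 2-fold different. Npr2, the receptor cyclase for C-type natriuretic peptide, was the highest of them at 27.1 and 23.7 FPKM.

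Pde5a (chromosome 3, 122728947 to 122859374) was at 2.31 FPKM in HG+HBS against 2.26 FPKM in HG+PC-NVs, about 214 and 183 fragments, with a ratio of 0.979 and an interval of 0.804 to 1.19. A difference of 1.5-fold in either direction lies outside that counting interval. Among the 11 phosphodiesterase genes of the list it ranked 6 by level in HG+HBS against 5 in HG+PC-NVs. The top gene of that list by level, Pde6d at 36.8 and 33.8 FPKM, encodes a lipid-binding chaperone and not a cGMP-degrading enzyme. Of the other 10 genes, 9 passed the filter and 1 differed more than 2-fold. This was Pde9a, a phosphodiesterase with high affinity for cGMP, which was at 2.98 FPKM in HG+HBS against 0.253 FPKM in HG+PC-NVs, about 83 and 6.2 fragments, a level 11.8 times higher in HG+HBS with an interval of 5.32 to 26.2. Pde9a passed the filter only through its level in HG+HBS, so its count as more than 2-fold lower follows from the filter.

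Prkg1 (chromosome 19, 30564489 to 31765033, reverse strand) was at 3.18 FPKM in HG+HBS against 1.73 FPKM in HG+PC-NVs, about 296 and 141 fragments if all came from its longer RefSeq transcript of 6976 nt. Its level was 1.83 times higher in HG+HBS, with an interval of 1.5 to 2.24. Both of its rows went the same way, from 0.743 to 0.402 FPKM and from 2.43 to 1.33 FPKM. The gene has alternative first exons that give the kinase different amino ends, and since it had 2 rows the windows before its 2 annotated start sites, which lie 100663 bases apart, are shown. The rows carry no transcript name, so neither could be tied to a start site. On the reverse strand of chr19:31765034-31765283, before the transcript of 6976 nt, and of chr19:31664371-31664620, before that of 2841 nt, the 250 bases read 5′ to 3′, with capitals marking CACCC on either strand:
Prkg1 upstream start: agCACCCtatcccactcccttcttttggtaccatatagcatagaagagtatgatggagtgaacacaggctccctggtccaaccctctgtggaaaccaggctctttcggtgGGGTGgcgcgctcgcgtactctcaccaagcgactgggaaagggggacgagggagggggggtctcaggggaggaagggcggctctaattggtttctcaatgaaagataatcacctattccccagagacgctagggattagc
Prkg1 downstream start: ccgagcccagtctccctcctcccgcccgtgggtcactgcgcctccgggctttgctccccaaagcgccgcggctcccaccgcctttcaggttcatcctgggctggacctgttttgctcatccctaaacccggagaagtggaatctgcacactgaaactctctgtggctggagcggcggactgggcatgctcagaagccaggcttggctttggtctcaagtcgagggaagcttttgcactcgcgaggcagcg
The upstream window held 2 such matches, at positions -248 and -140, and the downstream window none of the 5 motifs.

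Of 14 other cGMP kinase, substrate and contractile genes, 9 passed the filter, of which 0 were more than 2-fold higher and 1 was more than 2-fold lower, with a median log2 ratio of -0.09. The lower one was Mylk, myosin light chain kinase, at 2.21 FPKM in HG+HBS against 0.582 FPKM in HG+PC-NVs, about 230 and 53 fragments. Mylk passed the filter only through its level in HG+HBS. Prkg2, the gene of the second cGMP kinase, named after its values were seen, was well above Prkg1 in level at 81.1 and 66.4 FPKM. The 8 smooth muscle markers summed to 72.3 FPKM in HG+HBS against 37.1 FPKM in HG+PC-NVs. Of the 3 that passed the filter 2 were more than 2-fold lower, against 0.798% of all symbols passing the filter. These were Acta2 at 27.6 and 8.02 FPKM and Tagln at 17.3 and 7.34 FPKM. The other, Smtn, the highest of the list by mean level, was at 25.3 and 21.2 FPKM, a log2 ratio of -0.24. The defining marker Myh11 had about 1 fragment in each library (0.94 and 0.93), and none of the 8 was at 0. The 8 pericyte markers summed to 102 and 94 FPKM, none at 0, with 2 more than 2-fold higher and 0 more than 2-fold lower. The part of either cell type in the values of Prkg1 and Mylk was not tested.

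The partners of the synthases were mostly near equal levels as well. Of 16 genes, 14 passed the filter, 0 were more than 2-fold higher and 1 was more than 2-fold lower, with a median log2 ratio of -0.07. The lower one was Cav1, caveolin-1, which binds and restrains the endothelial synthase, at 136 FPKM in HG+HBS against 66.1 FPKM in HG+PC-NVs, a level 2.05 times higher in HG+HBS with an interval of 1.95 to 2.16. Its log2 ratio of -1.03 lay just past the threshold. Hsp90ab1, a chaperone of the synthases and the highest of the list, was at 795 and 753 FPKM.

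**Figure D2:**
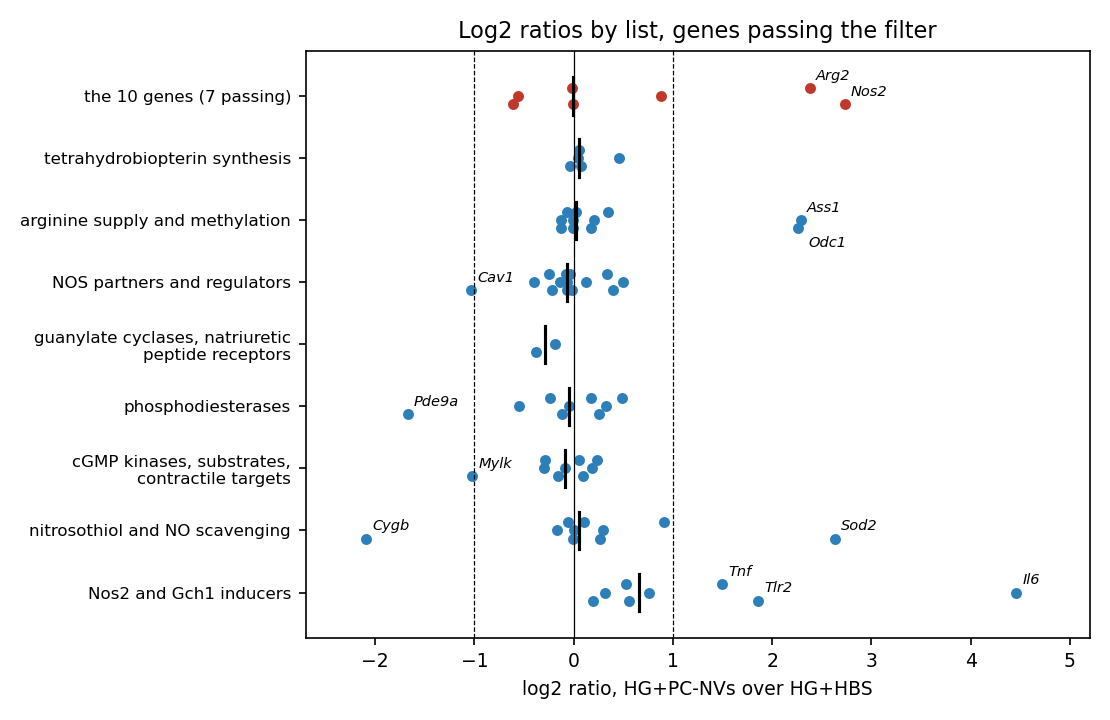
Log2 ratio (HG+PC-NVs over HG+HBS, on the log2(value + 1) scale) of each gene passing the filter, by list, with the median as a black bar and dashed lines at 2-fold. In the top row Nos2 and Arg2 stand at 2.73 and 2.38 with the median at -0.01, and in most other lists 0 to 2 genes lie past the dashed lines.

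Across the 10 genes, 7 passed the filter of a mean log2 level of at least 1, and Nos1, Nos3 and Arg1 did not. Past 2-fold on the higher side were 2, Nos2 and Arg2, where 2.38% of all 11785 symbols passing the filter were so, and 0 were more than 2-fold lower, against 0.798% of all symbols. With 1.5-fold as the threshold, 3 were higher (Nos2, Gch1 and Arg2), against 5.33% of all symbols, and 1 was lower (Prkg1), against 3.57%. With a 4-fold threshold, which is the fold part of the study's criterion without its minimum level, Nos2 and Arg2 were higher, against 0.636% of all symbols, and 0 were lower, against 0.0594%. Nos2 passed the filter only through its level in HG+PC-NVs, so its count as higher at 1.5-fold and 2-fold follows from the filter, and its count at 4-fold nearly does. With a mean log2 level of at least 3, only Arg2 was past 2-fold on the higher side, against 2.11% of all symbols then passing. The median log2 ratio of the 7 genes was -0.01, the same as that of all symbols passing the filter. Among 87 other genes of the pathway lists, 68 passed the filter, 6 were more than 2-fold higher and 4 more than 2-fold lower, with a median log2 ratio of 0.03. Of the lower ones Pde9a and Mylk passed the filter only through HG+HBS, and of the higher ones Tnf only through HG+PC-NVs.

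**Figure D3:**
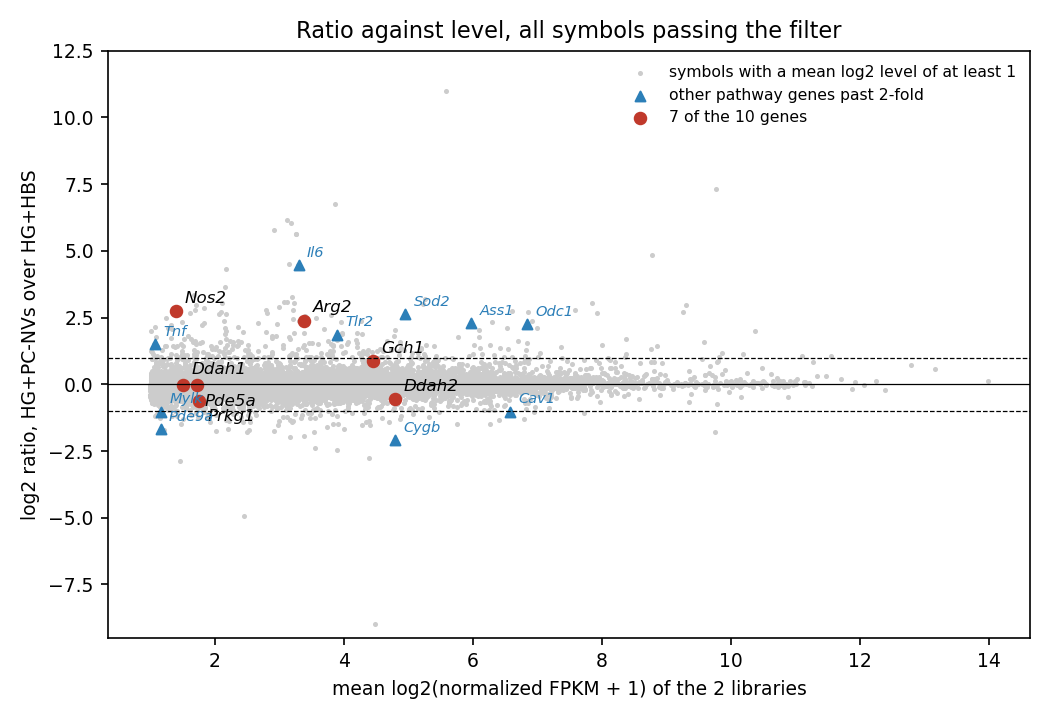
Log2 ratio (HG+PC-NVs over HG+HBS) against the mean log2(normalized FPKM + 1) of both libraries for the 11785 symbols passing the filter (grey), with 7 of the 10 genes in red and other pathway genes past 2-fold as blue triangles. Nos2 and Arg2 lie above the dashed 2-fold line, Gch1 just under it, and Ddah1 and Pde5a on the zero line.

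By level, which FPKM gives per length of transcript, the 10 genes ranged from 0.0209 to 32.5 FPKM in HG+HBS. In HG+PC-NVs they ranged from 0.0199 to 28.5 FPKM. In HG+HBS the order was Ddah2, Gch1, Arg2, Prkg1, Pde5a, Ddah1, Arg1, Nos3, Nos1 and Nos2. In HG+PC-NVs it was Gch1, Arg2, Ddah2, Nos2, Pde5a, Ddah1, Prkg1, Arg1, Nos1 and Nos3. Counting intervals of neighbours overlapped in HG+HBS between Arg2 and Prkg1, between Pde5a and Ddah1, and along Arg1, Nos3, Nos1 and Nos2. In HG+PC-NVs they overlapped between Arg2 and Ddah2, along Pde5a, Ddah1 and Prkg1, and between Nos1 and Nos3. Nos2 therefore moved from the last place to place 4, with no overlap with its neighbours there.

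Macrophages also express Nos2 and arginases when stimulated, and the myeloid markers differed between the libraries in both directions. The 10 myeloid markers summed to 355 FPKM in HG+HBS against 595 FPKM in HG+PC-NVs. All 10 passed the filter, 6 with a higher and 4 with a lower value in HG+PC-NVs, and their median log2 ratio was 0.07. More than 2-fold higher were 3 and more than 2-fold lower 1, against 2.38% and 0.798% of all symbols passing the filter. None was at 0 in either library. The higher ones, named with the lower one after their values were seen, were Cd14 at 36.6 and 252 FPKM, which made most of the difference in the sum, Adgre1 at 7.44 and 42.5 FPKM and Fcer1g at 18.8 and 41.1 FPKM, and the lower one was Mrc1 at 3.76 and 1.27 FPKM. The pan-leukocyte marker Ptprc was at 1.44 and 1.67 FPKM and Cd68 at 36.2 and 26.3 FPKM. The part of myeloid cells in the values of Nos2, Arg2 and Gch1 was not tested, and with 1 library per condition an effect of PC-NVs and a difference between the cultures cannot be told apart.

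**Figure D4:**
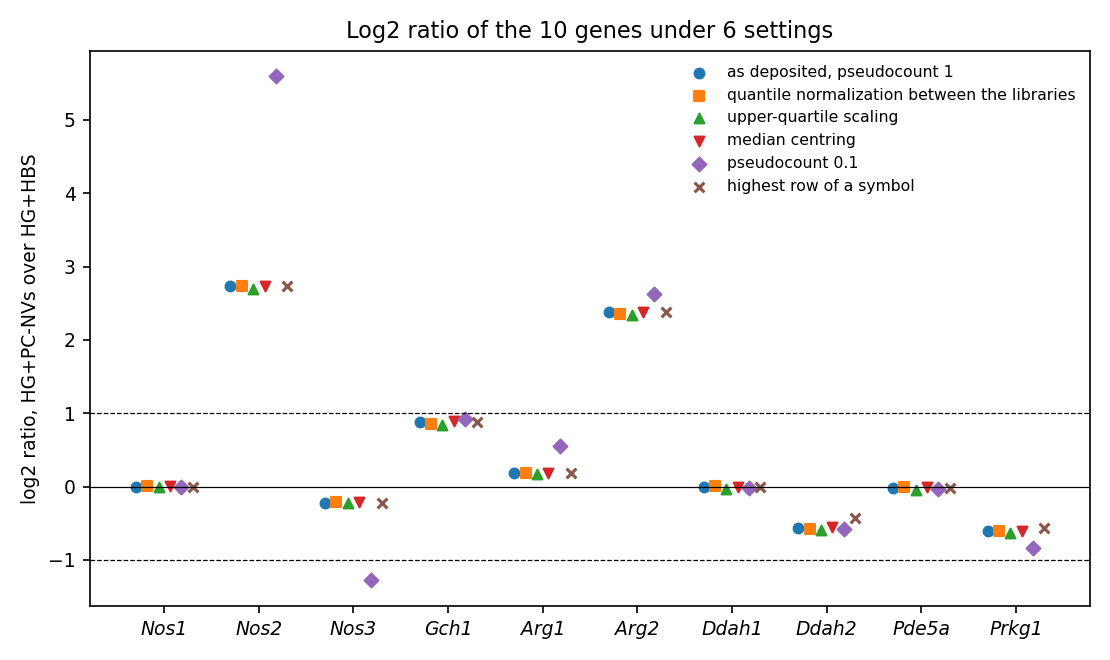
Log2 ratio (HG+PC-NVs over HG+HBS) of the 10 genes with values as deposited and under 5 other settings for normalization, pseudocount and rows. The symbols of a gene nearly coincide except with a pseudocount of 0.1, where Nos2 moves from 2.73 to 5.60 and Nos3 from -0.22 to -1.28.

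Genes that overlap others could share their reads. Among protein-coding genes, Nos3 overlaps Atg9b, Arg2 overlaps Vti1b and Prkg1 overlaps Cstf2t, each on the opposite strand in the annotation, and whether the strand was used in counting is not given in the sources used here. On the same strand, Nos1 overlaps Gm37028, and Gch1 and Ddah1 overlap the processed pseudogenes Gm18811 and Rpl36a-ps2.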

How the data were processed

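Poly(A) RNA was sequenced by the authors as 2 stranded paired-end libraries, 1 per condition. They trimmed the reads below Q20, aligned them with TopHat, derived FPKM with Cufflinks and applied what their methods name a quantile normalization. The build is mm10 per the labels, and tool versions and annotation are not given in the sources used here. The authors deposited log2(normalized FPKM + 1) values, read as such from their range and from the even steps of the low values. No read counts were used here.

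Here each value was taken back from the log2 scale, 1 was subtracted, and the results were summed over the rows of a symbol, and log2 ratios were taken with a pseudocount of 1 over symbols with a mean log2 level of at least 1. Values were used as deposited, with other normalizations as alternatives. The worth of 1 fragment was the most frequent low value of FPKM times length over 2189 genes with a single transcript longer than 1500 nt (GENCODE M21), 0.0749 in HG+HBS against 0.0858 in HG+PC-NVs, with a second peak at 1.99 and 2.03 times it. Fragments per gene used the length of its longest RefSeq-linked transcript. Ratios of FPKM have 95% Wilson intervals and levels 95% Poisson intervals, for counting error only, with 3 fragments as the floor.

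The 10 genes and all lists were chosen with earlier results of these data known. Besides the 10 genes, the rule for genes to name took the highest gene of each list, each gene past 2-fold with at least 1 FPKM in a library, and of each marker list the highest and the first 3 genes. The values of 2 genes under this rule are not reported here. Genes outside this rule are marked as named after their values were seen, and no gene was named for a similar pattern, since 2 libraries give 1 difference per gene. The calculations were tested on simulated data. Calculations ran in Python 3.11.15 with scipy 1.17.1, pandas 2.3.3 and numpy 2.4.6, and plots were drawn with matplotlib 3.10.9.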

Additional observations from a re-analysis of the deposited data

How the results depend on the processing

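The number of the 10 genes more than 2-fold higher was 2 with quantile normalization, upper-quartile scaling, median centring, a pseudocount of 0.1, the highest row of a symbol, a 4-fold threshold and no filter on low values, and these were Nos2 and Arg2 each time. It was 3 at 1.5-fold and 1 (Arg2) with a mean log2 level of at least 3, which leaves out Nos2. The number more than 2-fold lower was 0 in all of these except at 1.5-fold, where it was 1. Quantile normalization without the filter, chosen after seeing the data, also gave 2 and 0. The median log2 ratio of the genes was between -0.03 and 0.01 in all settings but the filter at 3, where it was 0.88 over the 3 genes left. The 4 lower pathway genes became 1 at 4-fold and 2 with the filter at 3. Of 50 alternative log2 ratios of the 10 genes, 46 moved by less than the counting error and 4 by more, all with a pseudocount of 0.1: Nos2 (5.60), Nos3 (-1.28), Arg1 (0.55) and Prkg1 (-0.84).

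No paired analysis was possible because each condition had a single library, which also left no replicate to leave out. Over all symbols passing the filter, a pseudocount of 0.1 gave 344 more than 2-fold higher and 190 lower and the filter at 3 gave 160 and 49, against 281 and 94. Depth limits Nos1, Nos3, Arg1 and the HG+HBS value of Nos2, each under about 12 fragments.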

Other observations

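A list of 10 genes covered nitrosothiol and nitric oxide removal together with enzymes that make or remove superoxide, which itself reacts with nitric oxide. All 10 passed the filter, 1 was more than 2-fold higher and 1 more than 2-fold lower in HG+PC-NVs, with a median log2 ratio of 0.05. The lower one was Cygb, cytoglobin, a globin that scavenges nitric oxide, at 56.3 FPKM in HG+HBS against 12.5 FPKM in HG+PC-NVs, about 1752 and 340 fragments, a level 4.5 times higher in HG+HBS with a counting interval of 4.02 to 5.05. The higher one was Sod2, the mitochondrial superoxide dismutase, which removes superoxide and not nitric oxide, at 11.4 and 75.9 FPKM, a ratio of 6.64 with an interval of 6.19 to 7.13. Sod1, the cytosolic enzyme and the highest of the list, was at 368 and 395 FPKM.

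Another list held 11 genes of signals and sensors known to induce Nos2 and Gch1. Of these, 8 passed the filter, all 8 with a higher value in HG+PC-NVs. Their median log2 ratio was 0.66, against -0.01 for all symbols passing the filter. Past 2-fold were 3 of them, where 2.38% of all symbols passing the filter were past 2-fold on that side. Il6 was at 1.09 and 45.1 FPKM, Tlr2, a receptor for bacterial lipoproteins, at 6.8 and 27.2 FPKM, and Tnf at 0.245 and 2.52 FPKM, the last on about 5.4 and 48 fragments and past the filter only through its level in HG+PC-NVs. Taken by its highest row alone, Tnf had a log2 ratio of 1.81 but no longer passed the filter on level. Il1a and Il1b did not pass the filter, at 0.193 and 1.89 FPKM and at 0.0615 and 1.35 FPKM, and Ifng, named after its values were seen, was listed at 0 in both libraries.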
